A study of Mus musculus with 18 samples.

Results

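Nuclear receptors are transcription factors, most of them switched by a small fat-soluble ligand such as a hormone, a fatty acid, a bile acid or a drug. Many bind DNA as a heterodimer with a retinoid X receptor, sit on repeats of a short half-site, and recruit coactivators or corepressors that open or close the chromatin. In liver they set the use of fatty acids (Ppara), bile acid synthesis (Nr1h4, Nr5a2), drug clearance (Nr1i2, Nr1i3), the response to glucocorticoids (Nr3c1) and hepatocyte identity (Hnf4a). The genes described here are 37 members of the family from a gene list labelled as nuclear receptors expressed in liver. They were taken by symbol, with no threshold on their values, out of the 21157 genes that the probes of the array could be named as. All 37 have a probe, 58 probes in all. A gene was tested if some probe of it stood well above background on 4 or more of the 18 arrays. This held for 35 of the 37, among 19601 genes in all.

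Liver RNA of male C57BL/6 mice in 4 groups was hybridised to 1 one-colour Agilent array per mouse. LFD mice (n = 4) ate a diet with 10% fat from 6 weeks of age, and HFD mice (n = 4) one with 60% fat. LFD MTX50 and HFD MTX50 mice (n = 5 each) ate the same diets and, after 10 weeks, received methotrexate, an inhibitor of folate metabolism, by intraperitoneal injection in 5 rounds of 50 mg/kg. Their livers were taken 1 week after the last dose. The LFD and HFD mice are labelled as untreated, and no vehicle injection is named for them. Nothing ties mice to cages or litters, so p-values measure the spread between these mice. A level is the log2 processed signal minus the 75th percentile of its array, so 0 is the 75th percentile, and a level is compared only between mice on the same probe.

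Defining hepatocyte transcripts were bright in every group: the summed linear level of 5 markers (Alb, Apoa1, Cps1, Ttr, Tat) was 391 to 630 times the 75th percentile on the 18 arrays. The 75th percentile itself lay between 1203 and 2263 intensity units, and 83.8 to 90.6% of probes were well above background. The LFD mice filled 1 slide that held no other group, so slide and group cannot be told apart in a comparison with LFD. The HFD and HFD MTX50 groups shared 1 slide (HFD mice 3 and 4, HFD MTX50 mice 1 and 2). Dim genes read higher against LFD than bright ones: when genes were cut by mean signal into 5 equal bins, the median log2 change of the dimmest bin was 0.42 in HFD vs LFD and 0.43 for LFD MTX50 against LFD, against -0.17 and -0.12 in the brightest bin. Over all genes the median was 0.08, 0.10 and -0.04 in HFD vs LFD, LFD MTX50 vs LFD and HFD MTX50 vs HFD. The part of this shift in the results on dim receptors was not tested, and the median of a receptor's own bin is given beside each call on a brightest probe in the 2 dimmest bins.

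Of the 37 genes, 32 were well above background on all 18 arrays on their brightest probe. Thra was so on 17, since its spot was marked as an outlier on the array of LFD mouse 1. Nr4a3, an orphan receptor induced by stress and cAMP, was above background on 11 arrays (1 of 4 LFD, 3 of 5 LFD MTX50, 4 of 4 HFD and 3 of 5 HFD MTX50). Vdr, the vitamin D receptor, was above background on 5 arrays (1 of 4, 3 of 5, 0 of 4 and 1 of 5 in the same order). Pgr, the progesterone receptor, was above background on 1 array (HFD MTX50) and Nr0b1, a corepressor of steroidogenic tissues, on none. Neither was tested.

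Receptor genes can themselves be targets of receptors, so the half-site AGGTCA (or TGACCT on the other strand) was sought before their starts. A window was the 250 bases before a start of a gene, from RefSeq on build GRCm38.p6, and a gene can have several starts. Of the 34 members with a window, 8 held it (23.5%), against 15.8% of all 27025 genes with a window (15.7% of the members' 51 windows, against 14% of all 32851): Nr0b1, Nr1h4, Nr5a2, Nr6a1, Rarg, Rxra, Rxrg and Thrb. The E-box CACGTG, which binds clock factors and reads the same on both strands, was in the windows of 4 members (11.8%; Esr2, Nr1i3, Rara and Thrb) against 6.9% of all genes (7.8% and 6.0% of windows). A match is a match of letters, not a site shown to be bound. The windows with the half-site are printed for the 6 of these 8 genes that passed a test below. Each of the 6 also has a window at another start, which held no half-site and is not printed. A printed window runs 5′ to 3′ on the strand of the gene and ends at the base before its start, with the half-site in capitals. Rxra holds 1 copy in each orientation, and Nr6a1 2 in the same one.
Nr5a2, chr1:136960449-136960698, minus strand: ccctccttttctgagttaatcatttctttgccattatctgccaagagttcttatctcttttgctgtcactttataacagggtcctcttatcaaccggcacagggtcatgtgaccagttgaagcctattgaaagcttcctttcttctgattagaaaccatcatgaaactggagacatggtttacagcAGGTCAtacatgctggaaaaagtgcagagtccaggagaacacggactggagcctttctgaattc
Nr6a1, chr2:38784516-38784765, minus strand: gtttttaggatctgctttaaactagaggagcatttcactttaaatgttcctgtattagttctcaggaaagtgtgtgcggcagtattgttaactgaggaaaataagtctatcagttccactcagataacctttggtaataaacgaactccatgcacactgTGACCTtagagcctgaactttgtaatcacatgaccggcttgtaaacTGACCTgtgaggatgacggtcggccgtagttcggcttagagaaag
Rarg, chr15:102257523-102257772, minus strand: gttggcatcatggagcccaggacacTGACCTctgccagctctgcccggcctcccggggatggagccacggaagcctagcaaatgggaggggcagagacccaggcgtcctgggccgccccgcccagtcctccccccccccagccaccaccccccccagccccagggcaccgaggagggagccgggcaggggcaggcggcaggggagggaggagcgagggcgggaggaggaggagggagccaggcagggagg
Rxra, chr2:27709042-27709291, plus strand: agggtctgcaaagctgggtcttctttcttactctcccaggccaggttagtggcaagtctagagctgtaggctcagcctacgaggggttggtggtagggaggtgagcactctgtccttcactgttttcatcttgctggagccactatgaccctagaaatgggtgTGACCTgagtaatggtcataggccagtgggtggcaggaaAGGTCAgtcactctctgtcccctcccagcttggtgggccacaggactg
Rxrg, chr1:167618015-167618264, plus strand: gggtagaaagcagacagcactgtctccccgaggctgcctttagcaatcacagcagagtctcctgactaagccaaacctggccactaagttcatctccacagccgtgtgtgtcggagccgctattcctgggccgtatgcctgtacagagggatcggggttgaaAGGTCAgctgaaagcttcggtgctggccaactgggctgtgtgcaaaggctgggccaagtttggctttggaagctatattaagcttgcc
Thrb, chr14:17660710-17660959, plus strand: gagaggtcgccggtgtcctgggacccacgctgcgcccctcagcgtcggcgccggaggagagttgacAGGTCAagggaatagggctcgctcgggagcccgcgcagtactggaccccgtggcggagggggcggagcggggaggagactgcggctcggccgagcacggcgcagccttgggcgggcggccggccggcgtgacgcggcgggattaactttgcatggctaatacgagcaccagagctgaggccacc

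Between the diets in untreated mice, 12 of the 35 tested receptors passed an adjusted p of 0.05 (HFD vs LFD), 6 higher and 6 lower. This share, 34.3%, stands beside 28.3% of all genes tested (18% higher and 10.4% lower). The receptors that fell were Hnf4a, Esrra, Thrb, Rora, Rarg and Nr2f6, and those that rose were Nr4a3, Nr6a1, Nr4a2, Rarb, Nr1h2 and Rxra. Changes of the 35 ran from -0.57 to 1.03 on the log2 scale with a median of -0.11. The highest was that of Nr4a3, which was well above background on 1 of the 4 LFD arrays. The groups did not overlap for 16 receptors (40.3% of all genes did not overlap). None of the 12 passed once slide entered as a random block (adjusted p 0.054 to 0.210), where 1.94% of all genes did. The count fell to 5 without HFD mouse 3 and without HFD mouse 4, both times Rarb, Esrra, Nr4a2, Nr4a3 and Nr6a1, and to 7 without LFD mouse 2 and without LFD mouse 4.

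Between treated and untreated lean mice, 10 of the 35 passed in LFD MTX50 vs LFD (28.6%, beside 28.1% of all genes, 17.6% higher and 10.5% lower). Esr1, Nr2f1, Nr1i2, Nr5a2 and Rxra rose, and Esrrb, Nr2f2, Rxrg, Nr4a1 and Esrra fell. Esrrb and Nr2f2 fell by 2-fold or more. The groups did not overlap for 12 receptors (29.1% of all genes). Under the random slide block none of the 10 passed (adjusted p 0.079 to 0.153), where 1.73% of all genes did. The count lay between 7 (without LFD mouse 2) and 15 (without LFD MTX50 mouse 4).

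Methotrexate in obese mice moved 2 of the 35 in HFD MTX50 vs HFD (5.7%, beside 11% of all genes, 4.83% higher and 6.13% lower). Hnf4a and Nr5a2 rose, both by less than 2-fold. The groups did not overlap for 3 receptors (11.4% of all genes). The count was 7 without HFD MTX50 mouse 1 and 5 without HFD mouse 1. It was 0 without HFD mouse 3, without HFD mouse 4 and without HFD MTX50 mouse 5, and 0 with the slide as a fixed block. With slide as a random block 2 passed, Hnf4a and Rarb (beside 9.48% of all genes), and not Nr5a2. It was 4 without LFD MTX50 mouse 3. It was 1 without LFD mouse 1 or 3, LFD MTX50 mouse 1 or 2, HFD mouse 2 or HFD MTX50 mouse 3. HFD vs LFD shares its LFD mice with LFD MTX50 vs LFD and its HFD mice with HFD MTX50 vs HFD, so the values of the comparisons are given side by side and are not independent.

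**Figure D1:**
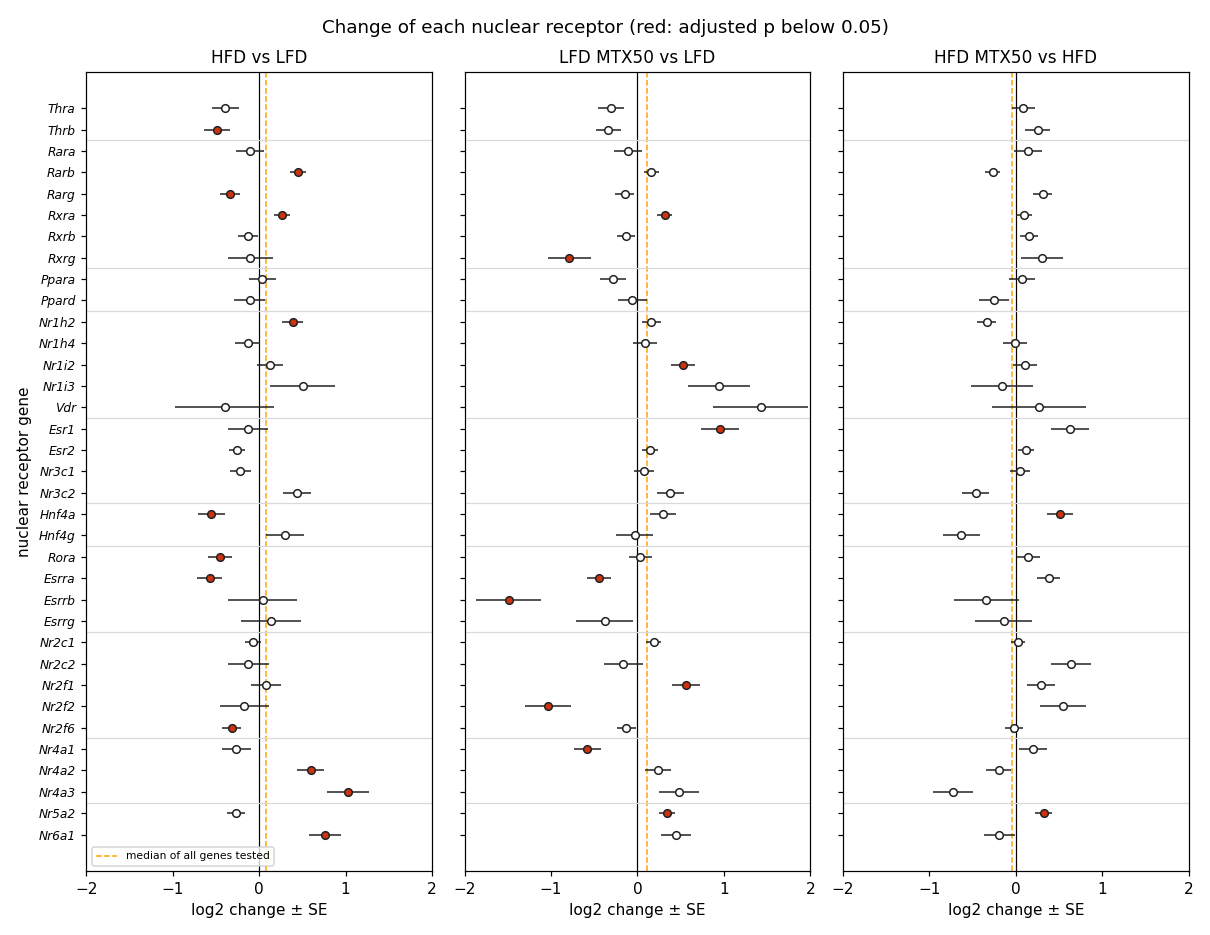
Each row is a tested receptor, grouped by kind, and the x axis of each panel is its log2 change with its SE in that comparison. Red points passed an adjusted p of 0.05 (12, 10 and 2 of 35), and the dashed line marks the median of all genes (0.08, 0.10 and -0.04).

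**Figure D2:**
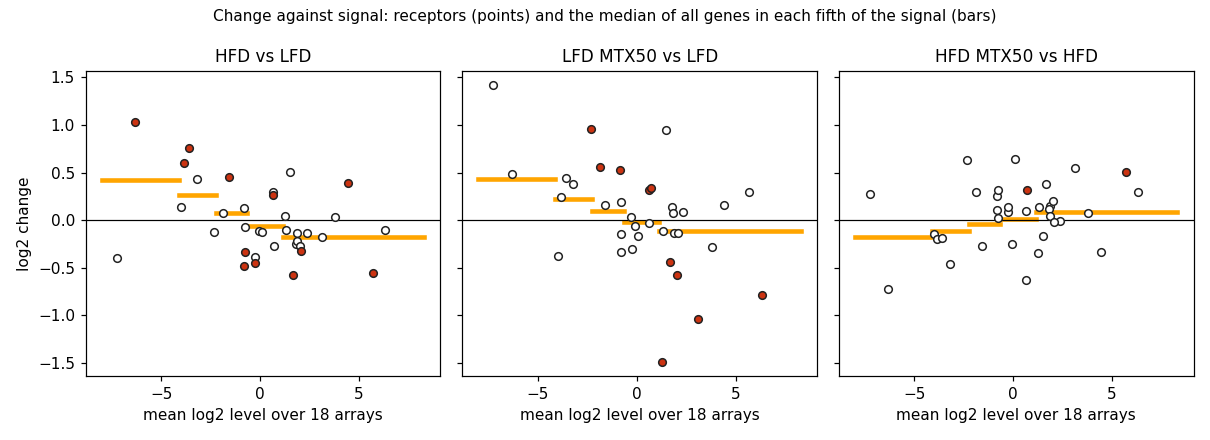
The x axis is a receptor's mean log2 level over the 18 arrays and the y axis its log2 change, red where past the test; the bars are the median change of all genes in each bin of the signal. In HFD vs LFD the bars run from 0.42 at the dim end to -0.17 at the bright end.

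Among the receptors for hepatocyte identity, Hnf4a (hepatocyte nuclear factor 4 alpha, which holds many liver genes active) read 5.66, 5.87, 5.56 and 5.86 in LFD, 5.98, 5.71, 6.33, 6.05 and 6.08 in LFD MTX50, 5.44, 5.29, 4.93 and 5.09 in HFD, and 5.42, 6.01, 5.62, 5.51 and 5.92 in HFD MTX50. All 4 HFD mice lay below all 4 LFD mice, and 4 of the 5 HFD MTX50 mice lay above all HFD mice. The HFD vs LFD change was -0.55 ± 0.16 (log2, SE, adjusted p = 0.018), and -0.29 (adjusted p = 0.069) after quantile normalization, where it did not pass. Its call there was lost without LFD mouse 2 (adjusted p 0.052), HFD mouse 3 (0.070) or HFD mouse 4 (0.056). The HFD MTX50 vs HFD change was 0.51 ± 0.15 (log2, SE, adjusted p = 0.038), and 0.71 between the mice on the shared slide. After quantile normalization it was 0.24 (adjusted p = 0.121). The call held under the random slide block (adjusted p 0.042), but not with slide as a fixed block (0.152), with the deposited value table (0.067), or without HFD mouse 2 (0.058), 3 (0.144) or 4 (0.118) or HFD MTX50 mouse 2 (0.062) or 5 (0.085). LFD MTX50 vs LFD gave 0.29 ± 0.15 (adjusted p = 0.139), higher with the 2 groups overlapping. Its paralogue Hnf4g did not pass in any of the 3 comparisons (0.30, -0.03 and -0.63 in the order of the figure panels). In whole liver, fewer cells of a type and less RNA per cell cannot be told apart.

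Nr5a2, also known as LRH-1, drives bile acid synthesis together with Hnf4a. It read 0.66, 0.79, 0.60 and 0.58 in LFD, 1.03, 1.08, 0.96, 1.02 and 0.90 in LFD MTX50, 0.48, 0.51, 0.13 and 0.43 in HFD, and 0.59, 0.58, 0.74, 0.84 and 0.80 in HFD MTX50. All 5 LFD MTX50 mice lay above all 4 LFD mice, and all 5 HFD MTX50 mice above all 4 HFD mice. The change was 0.34 ± 0.10 (log2, SE, adjusted p = 0.017) in LFD MTX50 vs LFD and 0.32 ± 0.10 (log2, SE, adjusted p = 0.041) in HFD MTX50 vs HFD. The first call was lost on scaling to the median of the probes above background on every array (0.24, adjusted p = 0.112). The second was lost when any of 10 arrays was left out (the highest adjusted p was 0.162, for HFD mouse 3) and under the random slide block (0.052), the fixed one (0.286) and the value table (0.074). The mice on the shared slide differed by 0.30. HFD vs LFD gave -0.27 ± 0.10 (adjusted p = 0.056) on this probe, and its dimmer probe fell there by 0.51 ± 0.13 (adjusted p = 0.011). That dimmer probe did not pass with methotrexate. It gave 0.07 ± 0.12 (adjusted p = 0.666) in LFD MTX50 vs LFD and 0.37 ± 0.12 (0.055) in HFD MTX50 vs HFD.

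**Figure D3:**
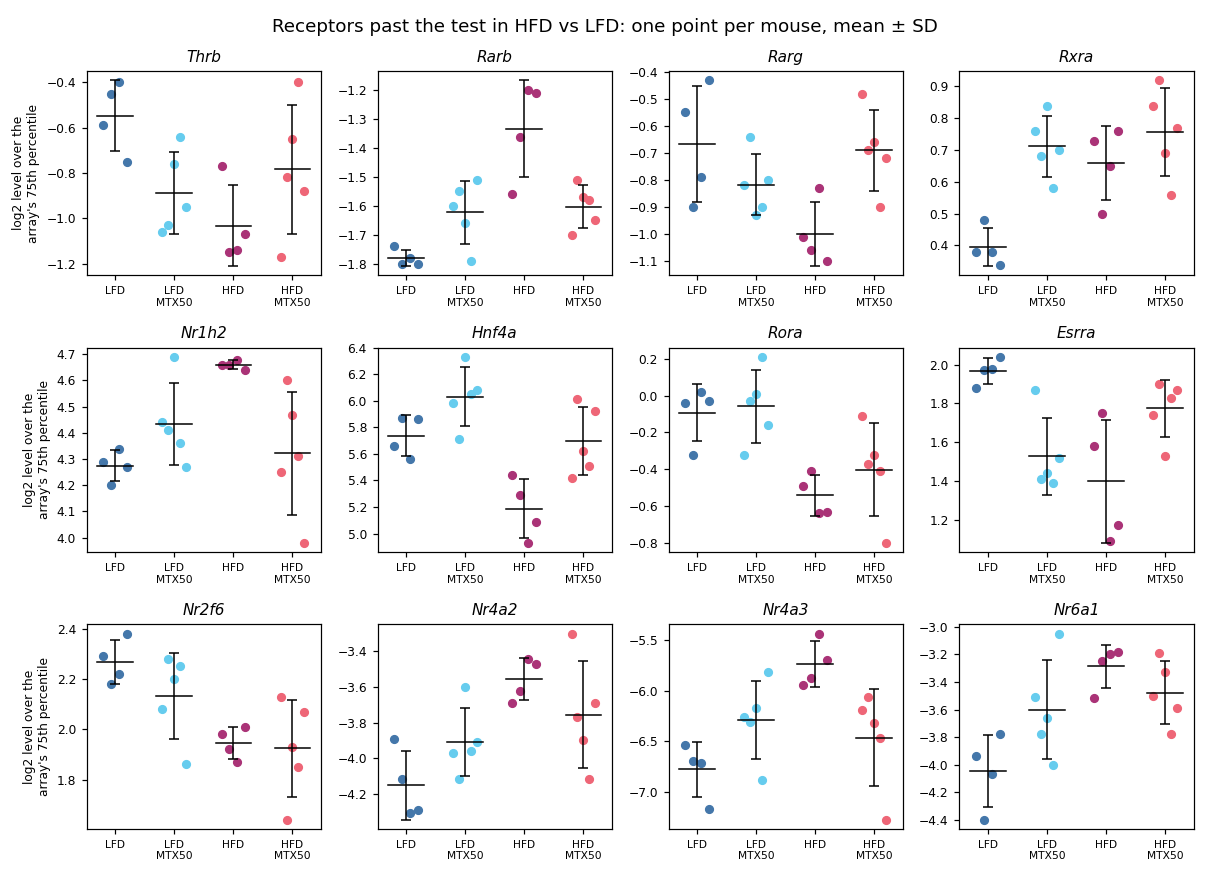
One panel per receptor that passed the test in HFD vs LFD, with the log2 level over the array's 75th percentile on the y axis, 1 point per mouse and bars for mean ± SD (LFD and HFD n = 4, LFD MTX50 and HFD MTX50 n = 5; axes do not start at 0). The HFD mice lie apart from the LFD mice in every panel but Rarg.

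Of the estrogen-related receptors, which raise mitochondrial genes together with the coactivator PGC-1, Esrra read 1.88, 1.97, 1.98 and 2.04 in LFD, 1.87, 1.41, 1.44, 1.39 and 1.52 in LFD MTX50, 1.58, 1.75, 1.09 and 1.17 in HFD, and 1.74, 1.90, 1.53, 1.83 and 1.87 in HFD MTX50. Every HFD mouse and every LFD MTX50 mouse lay below every LFD mouse. HFD mice 3 and 4, on 1 slide, were lower than HFD mice 1 and 2 on the other. The change was -0.57 ± 0.14 (log2, SE, adjusted p = 0.011) in HFD vs LFD, which held without any 1 of the 18 arrays, and -0.44 ± 0.14 (log2, SE, adjusted p = 0.025) in LFD MTX50 vs LFD. The second call ended when LFD mouse 2, 3 or 4, or mouse 2 or 3 of LFD MTX50, was left out (adjusted p 0.052 to 0.059), and after quantile normalization (0.067). In HFD MTX50 vs HFD it was 0.38 ± 0.14 (adjusted p = 0.077), and 0.69 on the shared slide.

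Esrrb, best known from embryonic stem cells, read 1.94, 2.48, 1.96 and 0.68 in LFD, 0.26, 0.41, -0.02, 0.14 and 0.59 in LFD MTX50, 1.84, 2.16, 0.95 and 2.27 in HFD, and 1.11, 1.37, 1.66, 2.56 and 0.62 in HFD MTX50. All LFD MTX50 mice lay below all LFD mice, although LFD mouse 4 was close to them. The change was -1.49 ± 0.38 (log2, SE, adjusted p = 0.011) in LFD MTX50 vs LFD, held without any 1 array, and was the largest of the 35 receptors past the test. It was the 1 receptor call of the 3 comparisons that held with normexp background. The gene was read on 1 probe, at a mean level of 1.28, and whether that signal comes from Esrrb was not tested. HFD vs LFD gave 0.04 ± 0.40 (adjusted p = 0.948) and HFD MTX50 vs HFD gave -0.34 ± 0.38 (adjusted p = 0.556). Esrrg, read on 2 probes, passed in none.

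Rora binds the same clock gene elements as the Rev-erb repressors and activates from them. On its brighter probe it read -0.04, -0.32, 0.02 and -0.03 in LFD, -0.32, -0.03, 0.01, 0.21 and -0.16 in LFD MTX50, -0.49, -0.41, -0.64 and -0.63 in HFD, and -0.11, -0.37, -0.32, -0.41 and -0.80 in HFD MTX50. All HFD mice lay below all LFD mice, by -0.45 ± 0.14 (log2, SE, adjusted p = 0.026), with LFD MTX50 vs LFD at 0.03 ± 0.13 (adjusted p = 0.867) and HFD MTX50 vs HFD at 0.14 ± 0.13 (adjusted p = 0.479). Leaving out LFD mouse 1, 3 or 4, or HFD mouse 3 or 4, ended the call (adjusted p 0.054 to 0.079), as did the value table (0.058). The dimmer probe went the other way, higher by 0.61 ± 0.16 (adjusted p = 0.013) in HFD vs LFD. Its LFD MTX50 vs LFD change was 0.50 ± 0.15 (0.024). That probe lies in the dimmest bin, where the median gene read 0.42 and 0.43 higher. The mean of both probes was 0.08 in HFD vs LFD, so no direction for the gene follows from the array.

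Ppara, the fatty acid receptor that turns on oxidation and ketogenesis, read 3.90, 3.85, 3.98 and 3.60 in LFD, 3.58, 3.47, 3.55, 3.48 and 3.67 in LFD MTX50, 4.13, 3.88, 3.78 and 3.69 in HFD, and 3.52, 4.02, 4.18, 4.32 and 3.66 in HFD MTX50. The groups overlapped in every comparison, with the LFD MTX50 mice at the low end. Its change was 0.04 ± 0.16 (log2, SE, adjusted p = 0.876) in HFD vs LFD (95% interval -0.29 to 0.37), -0.28 ± 0.15 (adjusted p = 0.151) in LFD MTX50 vs LFD (-0.60 to 0.03) and 0.07 ± 0.15 (adjusted p = 0.770) in HFD MTX50 vs HFD (-0.24 to 0.38). Its other 2 probes did not pass in any comparison either. Ppard, the ubiquitous paralogue, did not pass, with changes of -0.11, -0.06 and -0.25.

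Nr1i3, also called CAR, the sensor of barbiturate-like drugs, read 1.03, 1.12, 1.00 and 0.98 in LFD, 2.14, 1.92, 2.67, 1.28 and 1.86 in LFD MTX50, 1.89, 1.72, 1.06 and 1.47 in HFD, and 0.40, 2.11, 2.11, 1.85 and 0.40 in HFD MTX50. All LFD MTX50 mice lay above all LFD mice, and the HFD MTX50 mice spread over a wider range than any other group, with mice 1 and 5 the lowest of all 18. The change on this probe was 0.95 ± 0.36 (log2, SE, adjusted p = 0.055) in LFD MTX50 vs LFD and missed the threshold. It passed without any 1 of 5 arrays, at the least 0.030 without LFD MTX50 mouse 4, and the dimmer probe gave 0.89 ± 0.29 (adjusted p = 0.032). HFD vs LFD gave 0.51 ± 0.38 (adjusted p = 0.313) and HFD MTX50 vs HFD -0.16 ± 0.36 (adjusted p = 0.785).

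Nr1i2, also called PXR, binds steroids and many drugs. It read -1.06, -1.03, -1.03 and -1.12 in LFD, -0.88, -0.46, -0.26, -0.41 and -0.64 in LFD MTX50, -0.86, -0.90, -0.95 and -1.02 in HFD, and -1.15, -0.80, -0.79, -1.03 and -0.39 in HFD MTX50. All LFD MTX50 mice lay above all LFD mice, which were tightly grouped. The change was 0.53 ± 0.14 (log2, SE, adjusted p = 0.013) in LFD MTX50 vs LFD and held without any 1 array. HFD vs LFD gave 0.12 ± 0.15 (adjusted p = 0.533), with all HFD mice above all LFD mice but by a small step, and HFD MTX50 vs HFD gave 0.11 ± 0.14 (adjusted p = 0.629).

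Nr1h4, also called FXR, the bile acid receptor, read 2.29, 2.54, 2.28 and 2.46 in LFD, 2.65, 2.28, 2.82, 2.51 and 2.14 in LFD MTX50, 2.37, 2.38, 2.17 and 2.11 in HFD, and 2.16, 2.61, 2.20, 2.17 and 2.10 in HFD MTX50. All 4 groups overlapped. Its change was -0.13 ± 0.15 (log2, SE, adjusted p = 0.503) in HFD vs LFD (95% interval -0.44 to 0.18), 0.09 ± 0.14 (adjusted p = 0.655) in LFD MTX50 vs LFD (-0.21 to 0.38) and -0.01 ± 0.14 (adjusted p = 0.964) in HFD MTX50 vs HFD (-0.30 to 0.28). Nr1h2, also called LXR beta, the widely expressed oxysterol receptor, read 4.29, 4.20, 4.34 and 4.27 in LFD, 4.44, 4.41, 4.69, 4.36 and 4.27 in LFD MTX50, 4.66, 4.66, 4.68 and 4.64 in HFD, and 4.25, 4.60, 4.47, 4.31 and 3.98 in HFD MTX50. The 4 HFD mice lay very close together and above all LFD mice, by 0.39 ± 0.12 (log2, SE, adjusted p = 0.024). That call was lost without LFD mouse 2 (adjusted p 0.066) or 4 (0.052) or HFD mouse 3 (0.067) or 4 (0.057), with median scaling (0.064) and with the value table (0.070), while quantile normalization gave 0.68 (0.0053). All HFD MTX50 mice lay below all HFD mice, by -0.34 ± 0.11 (adjusted p = 0.058), which did not pass, while quantile normalization gave -0.56 (adjusted p = 0.014), which did. LFD MTX50 vs LFD gave 0.16 ± 0.11 (adjusted p = 0.285).

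**Figure D4:**
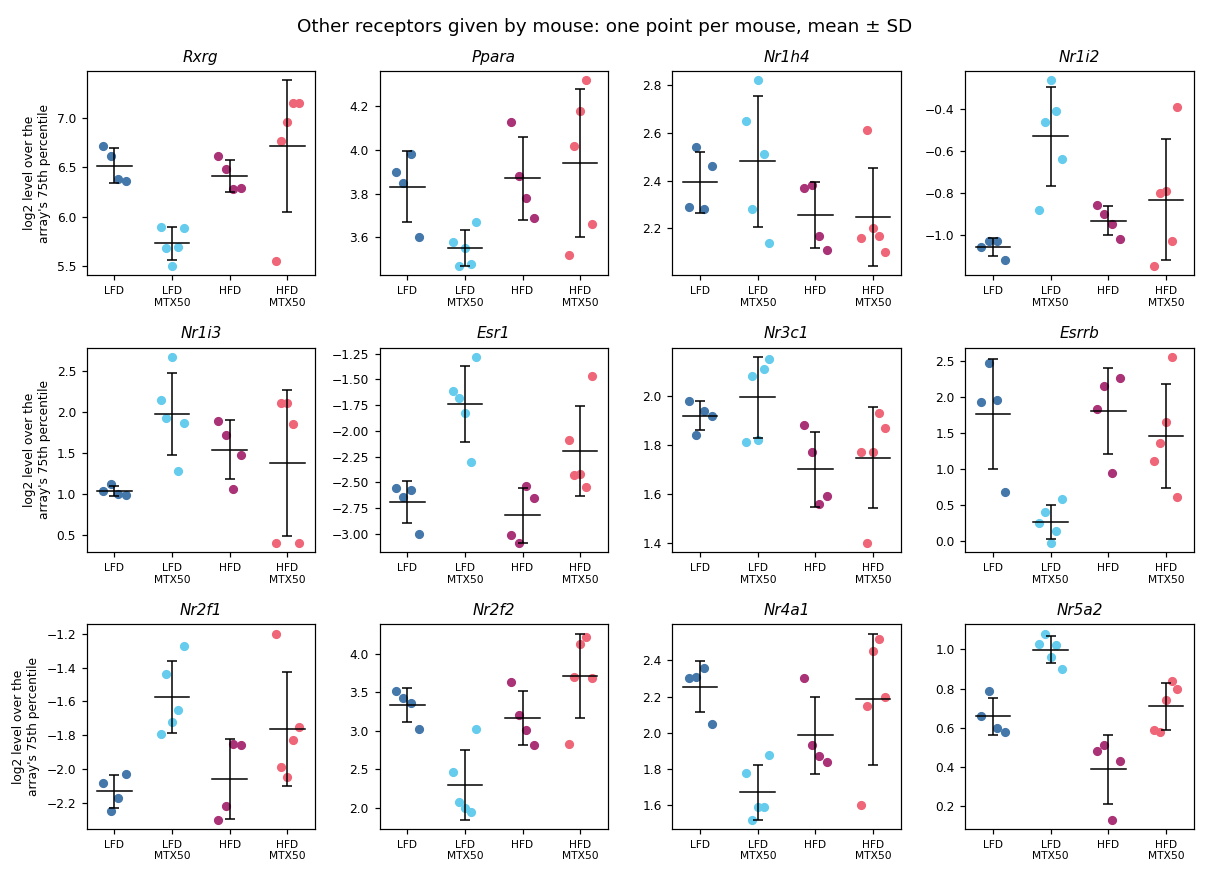
The other 12 receptors given by mouse, with the log2 level over the array's 75th percentile on the y axis, 1 point per mouse and bars for mean ± SD (LFD and HFD n = 4, LFD MTX50 and HFD MTX50 n = 5; axes do not start at 0). In Rxrg and Nr4a1, HFD MTX50 mouse 1 lies among the LFD MTX50 mice and away from the other 4 of its group.

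Thyroid hormone receptors repress or activate lipid genes according to hormone. Thrb, the main form in hepatocytes, read -0.59, -0.45, -0.40 and -0.75 in LFD, -1.06, -1.03, -0.76, -0.64 and -0.95 in LFD MTX50, -0.77, -1.15, -1.14 and -1.07 in HFD, and -1.17, -0.82, -0.65, -0.40 and -0.88 in HFD MTX50. All HFD mice lay below all LFD mice, HFD mouse 1 only just so. The change was -0.49 ± 0.15 (log2, SE, adjusted p = 0.026) in HFD vs LFD, and the dimmer probe gave -0.39 ± 0.10 (adjusted p = 0.011). The call on the brighter probe was lost without LFD mouse 2 or 3 or HFD mouse 2, 3 or 4 (adjusted p 0.061 to 0.079). LFD MTX50 vs LFD gave -0.34 ± 0.14 (adjusted p = 0.081) and HFD MTX50 vs HFD 0.25 ± 0.14 (adjusted p = 0.235). Thra gave -0.39 ± 0.15 (adjusted p = 0.064), -0.31 ± 0.15 (adjusted p = 0.119) and 0.08 ± 0.13 (adjusted p = 0.695) on its brighter probe, and its dimmer probe passed in HFD MTX50 vs HFD only (-0.54 ± 0.16, adjusted p = 0.036).

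Of the retinoid receptors, Rxra is the common partner of Ppara, Nr1h4, Nr1i2 and Nr1i3. It read 0.38, 0.48, 0.38 and 0.34 in LFD, 0.76, 0.68, 0.84, 0.58 and 0.70 in LFD MTX50, 0.73, 0.50, 0.65 and 0.76 in HFD, and 0.84, 0.92, 0.69, 0.56 and 0.77 in HFD MTX50. All LFD MTX50 and all HFD mice lay above all LFD mice. The change was 0.26 ± 0.09 (log2, SE, adjusted p = 0.046) in HFD vs LFD, with 0.32 ± 0.09 (log2, SE, adjusted p = 0.018) for LFD MTX50 vs LFD. The first call was lost without any 1 of 10 arrays, at most 0.130 without HFD mouse 4, after quantile normalization (0.054) and with the value table (0.071). The dimmer probe rose in HFD vs LFD too (0.55 ± 0.14, adjusted p = 0.012). Both calls on the brighter probe were lost on scaling to the median of the probes above background on every array (0.169 and 0.076), with no change of direction. HFD MTX50 vs HFD gave 0.10 ± 0.09 (adjusted p = 0.480). Rxrb, the ubiquitous form, passed in no comparison (-0.13, -0.14 and 0.15).

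Rxrg, the form of muscle and brain, was read on 2 probes of very unlike brightness (mean levels 6.33 and -1.02). Whether the signal of the brighter probe comes from Rxrg was not tested. The brighter one read 6.72, 6.62, 6.38 and 6.36 in LFD, 5.90, 5.68, 5.50, 5.69 and 5.89 in LFD MTX50, 6.62, 6.48, 6.28 and 6.29 in HFD, and 5.55, 6.77, 6.96, 7.15 and 7.15 in HFD MTX50. All LFD MTX50 mice lay below all LFD mice, and so did HFD MTX50 mouse 1, while the other 4 HFD MTX50 mice lay above all HFD mice. The change was -0.79 ± 0.24 (log2, SE, adjusted p = 0.026) in LFD MTX50 vs LFD, and the call ended when LFD mouse 1 (adjusted p 0.064), LFD mouse 2 (0.066) or LFD MTX50 mouse 3 (0.061) was left out. On the dimmer probe it was -0.11 ± 0.13 (adjusted p = 0.515). HFD vs LFD gave -0.10 ± 0.26 (adjusted p = 0.780) and HFD MTX50 vs HFD 0.30 ± 0.24 (adjusted p = 0.413), the latter 0.59 and past the test without HFD MTX50 mouse 1 (adjusted p 0.014).

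Rarb, the retinoic acid receptor that retinoic acid itself induces, read -1.74, -1.80, -1.78 and -1.80 in LFD, -1.60, -1.55, -1.66, -1.79 and -1.51 in LFD MTX50, -1.56, -1.36, -1.20 and -1.21 in HFD, and -1.70, -1.51, -1.57, -1.58 and -1.65 in HFD MTX50. All HFD mice lay above all LFD mice, which lay close together, and HFD mice 3 and 4 were the highest. The change was 0.45 ± 0.09 (log2, SE, adjusted p = 0.0054) in HFD vs LFD and held without any 1 array, with 0.16 ± 0.09 (adjusted p = 0.173) in LFD MTX50 vs LFD and -0.27 ± 0.09 (adjusted p = 0.058) in HFD MTX50 vs HFD. The last of these passed, just under the threshold, with slide as a random block (-0.30, adjusted p 0.050), while the first did not (0.054). Its other 2 probes did not pass in HFD vs LFD (-0.29 ± 0.27 and 0.12 ± 0.24), and the first of them fell in LFD MTX50 vs LFD (-0.72 ± 0.26, adjusted p = 0.048). The probes thus disagreed for this gene.

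Rarg, a form found mostly in skin, read -0.55, -0.90, -0.79 and -0.43 in LFD, -0.82, -0.64, -0.93, -0.90 and -0.80 in LFD MTX50, -1.01, -1.06, -0.83 and -1.10 in HFD, and -0.48, -0.69, -0.66, -0.90 and -0.72 in HFD MTX50. The HFD mice were lower than the LFD mice on average, with overlap. The change was -0.33 ± 0.12 (log2, SE, adjusted p = 0.042) in HFD vs LFD, lost without any 1 of 7 arrays, at most 0.132 without LFD mouse 4, and with the value table (0.082). LFD MTX50 vs LFD gave -0.15 ± 0.11 (adjusted p = 0.322) and HFD MTX50 vs HFD 0.31 ± 0.11 (adjusted p = 0.072), which passed after quantile normalization (adjusted p 0.042). Rara, the broadly expressed form, gave -0.11, -0.11 and 0.14, none past the test.

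Among steroid receptors, Nr3c1, the glucocorticoid receptor, read 1.98, 1.84, 1.94 and 1.92 in LFD, 1.81, 2.08, 1.82, 2.11 and 2.15 in LFD MTX50, 1.88, 1.77, 1.56 and 1.59 in HFD, and 1.77, 1.40, 1.77, 1.93 and 1.87 in HFD MTX50. The groups overlapped in every comparison. The change was -0.22 ± 0.12 (log2, SE, adjusted p = 0.176) in HFD vs LFD (95% interval -0.48 to 0.04), 0.07 ± 0.12 (adjusted p = 0.658) in LFD MTX50 vs LFD (-0.17 to 0.32) and 0.05 ± 0.12 (adjusted p = 0.803) in HFD MTX50 vs HFD (-0.20 to 0.29). Esr1, the estrogen receptor of hepatocytes, read -2.56, -2.64, -2.58 and -3.00 in LFD, -1.61, -1.68, -1.83, -2.30 and -1.28 in LFD MTX50, -3.01, -3.09, -2.54 and -2.65 in HFD, and -2.09, -2.43, -2.42, -2.55 and -1.47 in HFD MTX50 on its brightest probe. All LFD MTX50 mice lay above all LFD mice. The change was 0.96 ± 0.22 (log2, SE, adjusted p = 0.0071) in LFD MTX50 vs LFD, held without any 1 array, against a median of 0.22 in its bin of the signal. The dimmest of its 3 probes gave 1.56 ± 0.36 (adjusted p = 0.0069) and the middle one 0.32 ± 0.13 (0.082). HFD MTX50 vs HFD gave 0.63 ± 0.22 (adjusted p = 0.070), past the test after quantile normalization (0.044), and HFD vs LFD -0.13 ± 0.23 (adjusted p = 0.702). Esr2 (the beta form) and Nr3c2 (the mineralocorticoid receptor) passed in none of the 3 comparisons, nearest in HFD vs LFD (-0.25 ± 0.10 (adjusted p = 0.056) and 0.44 ± 0.17 (adjusted p = 0.056)).

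Among the COUP-TF and testicular receptors, orphans that mostly repress, Nr2f2 (COUP-TFII) read 3.52, 3.42, 3.36 and 3.02 in LFD, 2.46, 2.07, 1.99, 1.94 and 3.02 in LFD MTX50, 3.63, 3.20, 3.01 and 2.81 in HFD, and 2.83, 3.70, 4.13, 4.21 and 3.68 in HFD MTX50. LFD MTX50 mice 1 to 4 lay far below the LFD mice, and mouse 5, the 1 mouse of that group on another slide, reached the lowest LFD mouse to within rounding. The change was -1.04 ± 0.27 (log2, SE, adjusted p = 0.012) in LFD MTX50 vs LFD and held without any 1 array. In HFD MTX50 vs HFD it was 0.55 ± 0.27 (adjusted p = 0.172), and 0.77 and past the test without HFD MTX50 mouse 1 (adjusted p 0.039), and HFD vs LFD gave -0.17 ± 0.28 (adjusted p = 0.661).

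Nr2f1 (COUP-TFI) read -2.08, -2.25, -2.17 and -2.03 in LFD, -1.79, -1.44, -1.72, -1.65 and -1.27 in LFD MTX50, -2.30, -2.22, -1.85 and -1.86 in HFD, and -1.20, -1.99, -2.05, -1.83 and -1.75 in HFD MTX50. No LFD mouse reached the LFD MTX50 mice, which were higher by 0.56 ± 0.16 (log2, SE, adjusted p = 0.020). The call was lost without LFD mouse 2 (adjusted p 0.058) and after quantile normalization (0.055). The dimmer probe was lower, -0.30 ± 0.12 (0.072). HFD vs LFD gave 0.08 ± 0.17 (adjusted p = 0.755) and HFD MTX50 vs HFD 0.29 ± 0.16 (adjusted p = 0.224). Nr2f6, which represses in lymphocytes and liver, read 2.29, 2.18, 2.22 and 2.38 in LFD, 2.08, 2.28, 2.20, 2.25 and 1.86 in LFD MTX50, 1.98, 1.92, 1.87 and 2.01 in HFD, and 2.13, 1.64, 1.93, 1.85 and 2.07 in HFD MTX50. Every HFD mouse read below every LFD mouse, by -0.32 ± 0.11 (log2, SE, adjusted p = 0.045). The call was lost without any 1 of 12 arrays (at most 0.122, without HFD mouse 3) and after quantile normalization (0.218), and the median of its bin was -0.17. LFD MTX50 vs LFD gave -0.13 ± 0.11 (adjusted p = 0.366) and HFD MTX50 vs HFD -0.02 ± 0.11 (adjusted p = 0.908). Nr2c1 and Nr2c2, the testicular receptors, did not pass on their brighter probes (the dimmer probe of Nr2c1 fell in HFD vs LFD, -0.40 ± 0.12, adjusted p = 0.024), the nearest being Nr2c2 in HFD MTX50 vs HFD (0.64 ± 0.23 (adjusted p = 0.075)).

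The NR4A receptors need no ligand and are induced within the hour by stress, cAMP and growth factors. Nr4a1 read 2.30, 2.31, 2.36 and 2.05 in LFD, 1.78, 1.52, 1.59, 1.59 and 1.88 in LFD MTX50, 2.30, 1.93, 1.87 and 1.84 in HFD, and 1.60, 2.15, 2.45, 2.52 and 2.20 in HFD MTX50. Every LFD MTX50 mouse read below every LFD mouse, and HFD MTX50 mouse 1 lay with them. The change was -0.58 ± 0.16 (log2, SE, adjusted p = 0.016) in LFD MTX50 vs LFD and held without any 1 array, with -0.27 ± 0.17 (adjusted p = 0.234) in HFD vs LFD and 0.20 ± 0.16 (adjusted p = 0.407) in HFD MTX50 vs HFD. Nr4a2 read -3.89, -4.12, -4.31 and -4.29 in LFD, -3.97, -4.12, -3.60, -3.96 and -3.91 in LFD MTX50, -3.69, -3.62, -3.44 and -3.47 in HFD, and -3.30, -3.77, -3.90, -4.12 and -3.69 in HFD MTX50. All HFD mice lay above all LFD mice, by 0.60 ± 0.16 (log2, SE, adjusted p = 0.013), against 0.27 for the median gene of its bin, and quantile normalization gave 0.33 (adjusted p = 0.080). Its other probe gave 0.16 ± 0.40 (adjusted p = 0.778). LFD MTX50 vs LFD gave 0.24 ± 0.15 (adjusted p = 0.221) and HFD MTX50 vs HFD -0.20 ± 0.15 (adjusted p = 0.363).

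Nr4a3 read -6.53, -6.69, -6.71 and -7.16 in LFD, -6.26, -6.31, -6.17, -6.88 and -5.82 in LFD MTX50, -5.94, -5.88, -5.44 and -5.70 in HFD, and -6.19, -6.06, -6.32, -6.47 and -7.27 in HFD MTX50. All HFD mice lay above all LFD mice and above all HFD MTX50 mice. The change was 1.03 ± 0.24 (log2, SE, adjusted p = 0.0086) in HFD vs LFD and held without any 1 array, against 0.42 for the median gene of its bin. It was 0.64 (adjusted p = 0.047) after quantile normalization. On 3 of the 4 LFD arrays it was not well above background. HFD MTX50 vs HFD gave -0.72 ± 0.23 (adjusted p = 0.052), just short of the test, and LFD MTX50 vs LFD 0.48 ± 0.23 (adjusted p = 0.119). Nr6a1, the germ cell nuclear factor, read -3.94, -4.40, -4.07 and -3.78 in LFD, -3.51, -3.78, -3.66, -4.00 and -3.05 in LFD MTX50, -3.52, -3.25, -3.20 and -3.18 in HFD, and -3.50, -3.19, -3.33, -3.78 and -3.59 in HFD MTX50. Every HFD mouse read above every LFD mouse, by 0.76 ± 0.18 (log2, SE, adjusted p = 0.0096), which held without any 1 array, against 0.27 for the median gene of its bin. LFD MTX50 vs LFD gave 0.45 ± 0.17 (adjusted p = 0.062) and HFD MTX50 vs HFD -0.19 ± 0.17 (adjusted p = 0.475).

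The remaining 11 tested receptors (Thra, Rara, Rxrb, Ppard, Vdr, Esr2, Nr3c2, Hnf4g, Esrrg, Nr2c1 and Nr2c2) passed in none of the 3 comparisons on their brightest probe. Their changes ran from -0.40 (Vdr) to 0.44 (Nr3c2) in HFD vs LFD, from -0.38 (Esrrg) to 1.42 (Vdr) in LFD MTX50 vs LFD, and from -0.63 (Hnf4g) to 0.64 (Nr2c2) in HFD MTX50 vs HFD. The Vdr values lie at or under background on most arrays and give no fold.

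The effect of methotrexate differed between the diets for 10 of the 35 receptors (28.6%, beside 26.8% of all genes), by the interaction of diet and treatment. For 6 it was higher in obese mice (Thrb, Rarg, Rxrg, Esrra, Nr2f2 and Nr4a1, beside 8.66% of all genes) and for 4 lower (Rarb, Nr1h2, Nr3c2 and Nr4a3, beside 18.1%). The largest difference was that of Nr2f2, which fell in LFD MTX50 vs LFD (-1.04) and not in HFD MTX50 vs HFD (0.55), a difference of 1.59 ± 0.38 (log2, SE, adjusted p = 0.0096). Esrra gave -0.44 and 0.38, a difference of 0.82 ± 0.19 (log2, SE, adjusted p = 0.0091). The dimmer probes of Thrb (0.19 ± 0.13, adjusted p = 0.277) and Rxrg (0.07 ± 0.18, 0.800) did not pass. Those of Rarb (0.63 ± 0.37, 0.207, and -0.30 ± 0.32, 0.499) did not pass either, and the first went the other way. Under the random slide block Esrra was the 1 receptor of the 10 that passed (adjusted p 0.040), and 6.38% of all genes did. Quantile normalization gave -0.47 (adjusted p = 0.251) for Nr4a3, whose bin had a median of -0.605, -0.55 (0.073) for Nr3c2, with a median of -0.319 in its bin, and -0.29 (0.090) for Rarb. Median scaling ended the calls of Rarb (0.074) and Nr1h2 (0.093), and the value table those of Nr1h2 (0.078) and Rarg (0.064). Without HFD mouse 3 the count was 6, and without HFD mouse 4 it was 5.

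Genes that the receptors are known to control were read from 14 lists (114 genes, 110 tested), together with coactivators, corepressors and the family members not among the 37. Of the 110, 24 passed in HFD vs LFD (21.8%), 40 in LFD MTX50 vs LFD (36.4%) and 12 in HFD MTX50 vs HFD (10.9%). Of all genes 28.3, 28.1 and 11% did, so the first share lay below that of all genes and the last beside it. For each list below the shares of all genes to set it against are 18% higher and 10.4% lower for HFD vs LFD, 17.6% higher and 10.5% lower for LFD MTX50 vs LFD, and 4.83% higher and 6.13% lower for HFD MTX50 vs HFD, with medians of 0.08, 0.10 and -0.04. Under the random slide block 2, 3 and 11 of these calls held (1.94, 1.73 and 9.48% of all genes passed there). The 2 were Idh3a and Cry1, and the 3 were Acaa1b, Abcb1a and Zbtb16. In HFD MTX50 vs HFD the 1 call that did not hold was Idh3a.

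Of 12 Ppara targets, 6 fell and none rose in LFD MTX50 vs LFD (median -0.92, beside 10.5% of all genes lower), and 2 fell in HFD MTX50 vs HFD (median -0.36, beside 6.13%). Acaa1b, a peroxisomal thiolase, fell by 2.28 ± 0.43 (log2, SE, adjusted p = 0.0031) and 1.68 ± 0.43 (0.026) in the 2.  The pantetheinase Vnn1 (-1.91 ± 0.43, adjusted p = 0.0068), the kinase Pdk4 (-1.28 ± 0.44, 0.039) and the lipid droplet protein Plin2 (-1.27 ± 0.33, 0.012) fell in lean treated mice. Cpt1a, the gate of mitochondrial oxidation, rose in HFD vs LFD (0.60 ± 0.20, 0.037), and Cyp4a14 passed nowhere. Ppara itself passed in no comparison.

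Of 11 targets of Nr1i3 and Nr1i2, 3 rose in HFD vs LFD, and 4 rose and 1 fell in LFD MTX50 vs LFD (median 0.60). Cyp2b10, the classic target of Nr1i3, rose in HFD vs LFD (2.24 ± 0.73, adjusted p = 0.032) and gave 1.57 ± 0.69 (0.093) in LFD MTX50 vs LFD. Cyp2b9 rose in both (2.49 ± 0.66, 0.014, and 2.07 ± 0.63, 0.024). Cyp3a11, the classic target of Nr1i2, passed nowhere and was -0.77 ± 0.46 in LFD MTX50 vs LFD. Cyp3a13 rose with methotrexate on both diets (1.12 ± 0.25, 0.0059, and 1.08 ± 0.25, 0.017), and the glutathione transferase Gstm3 fell on both (-0.91 ± 0.32, 0.046, and -1.40 ± 0.32, 0.018). Por, the electron donor of the P450 enzymes, rose in LFD MTX50 vs LFD (1.18 ± 0.41, 0.040).

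Of 7 bile acid genes that respond to Nr1h4, the corepressor Nr0b2 passed nowhere and Abcb11, the bile salt pump, fell in HFD vs LFD (-0.75 ± 0.22, adjusted p = 0.021). Cyp8b1, the enzyme that makes cholic acid, fell with methotrexate on both diets (-1.37 ± 0.31, 0.0068, and -1.60 ± 0.31, 0.0092). The uptake carrier Slc10a1 rose in LFD MTX50 vs LFD (0.27 ± 0.10, 0.043). Of 7 oxysterol receptor targets, the cholesterol exporter Abca1 fell in HFD vs LFD (-0.63 ± 0.17, 0.013), and Abcg5 and 5 others passed nowhere. Of 9 Hnf4a targets 1 passed in HFD vs LFD and it fell, Mttp, which loads lipoproteins (-0.55 ± 0.13, 0.0086). Another 1, the urea cycle enzyme Otc, fell in LFD MTX50 vs LFD (-0.79 ± 0.20, 0.012), and none passed in HFD MTX50 vs HFD, where Hnf4a rose. Apoc3 passed nowhere, at -0.29 ± 0.13 (0.096) in HFD vs LFD. The median of the 9 was -0.18, 0.01 and 0.10 in the 3 comparisons.

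Of 5 thyroid hormone targets, the deiodinase Dio1 rose in HFD vs LFD (1.10 ± 0.38, adjusted p = 0.039), and in LFD MTX50 vs LFD Klf9 rose (0.92 ± 0.21, 0.007) and malic enzyme Me1 fell (-1.58 ± 0.39, 0.010). Thrsp passed nowhere (-2.40 ± 0.76, 0.051, in HFD MTX50 vs HFD). Of 11 glucocorticoid targets 4 rose and none fell in LFD MTX50 vs LFD: the metallothioneins Mt2 (5.15 ± 1.08, 0.0047) and Mt1 (4.84 ± 0.95, 0.0036), the factor Zbtb16 (1.95 ± 0.33, 0.0017) and Pck1 of gluconeogenesis (1.31 ± 0.28, 0.0053). In HFD vs LFD 1 fell, the kinase Sgk1 (-1.15 ± 0.34, 0.022). Mt1 and Mt2 also rose in HFD MTX50 vs HFD (4.46 ± 0.95, 0.013, and 4.95 ± 1.08, 0.014). Metallothioneins are near-identical paralogues and also answer to zinc. The more specific targets Tat and Fkbp5 passed nowhere, as did Nr3c1. Among the retinoid genes, Stra6 rose (0.44 ± 0.14, 0.026) and Dhrs3 fell (-0.55 ± 0.20, 0.048) in LFD MTX50 vs LFD, and Cyp26a1 and Cyp26b1 passed nowhere.

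Of 4 clock genes with elements for Rora, 3 fell in HFD vs LFD: Arntl (-1.69 ± 0.49, adjusted p = 0.020), Cry1 (-1.65 ± 0.33, 0.0046) and Clock (-0.61 ± 0.15, 0.0096). The latter 2 also fell in LFD MTX50 vs LFD, and Npas2 passed in none of the 3 comparisons. By the interaction of diet and treatment 2 of the 4 were higher in obese mice and 1, Npas2, was lower. The labels do not give the hour of harvest. Of 5 targets of the estrogen-related receptors, all of them mitochondrial enzymes or carriers, 2 fell in HFD vs LFD, and 4 fell in LFD MTX50 vs LFD (median -0.53), beside Esrra, which fell in both. Idh3a of the citric acid cycle fell in both (-0.70 ± 0.13, 0.0034, and -0.53 ± 0.12, 0.0063) and rose in HFD MTX50 vs HFD (0.39 ± 0.12, 0.044). Cytochrome c (Cycs) fell in LFD MTX50 vs LFD (-0.59 ± 0.13, 0.0055). Of 7 immediate early genes, which share their inducers with the NR4A receptors, 3 rose in LFD MTX50 vs LFD, where Nr4a1 fell. They were Egr1 (1.68 ± 0.61, 0.048), Junb (1.06 ± 0.19, 0.0025) and Ier2 (0.99 ± 0.21, 0.0052). Junb and Ier2 lie in the dimmest bin of the signal, with a median of 0.43 in that comparison, and Nr4a1 in the brightest (-0.12). Fos passed nowhere.

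Of 10 coactivators, 5 fell and none rose in HFD vs LFD (median -0.28, beside 10.4% of all genes lower), and 3 rose and none fell in HFD MTX50 vs HFD (median 0.36, beside 4.83% higher). Ppargc1a, the partner of Esrra, Hnf4a and Ppara, fell in HFD vs LFD (-1.20 ± 0.25, adjusted p = 0.0053) and rose in HFD MTX50 vs HFD (0.76 ± 0.24, 0.048). The acetyltransferase Ep300 did the same (-0.54 ± 0.12, 0.0065, and 0.56 ± 0.11, 0.010), as did Ncoa2 (-0.65 ± 0.14, 0.0055, and 0.43 ± 0.13, 0.042). Ncoa1 fell in HFD vs LFD (-0.62 ± 0.14, 0.008), and the mediator subunit Med1 fell in LFD MTX50 vs LFD (-1.63 ± 0.51, 0.026). Ppargc1b passed nowhere. Of the corepressors, Ncor1 passed nowhere. HFD vs LFD and HFD MTX50 vs HFD share the HFD mice, and HFD vs LFD and LFD MTX50 vs LFD the LFD mice.

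Of the 10 tested family members not among the 37, Pparg rose in HFD vs LFD (0.72 ± 0.14, adjusted p = 0.0043) and fell in HFD MTX50 vs HFD (-0.70 ± 0.13, 0.009), the groups not overlapping in either. Its fall held under the random slide block (0.014). Nr1h3, the liver form of the oxysterol receptor, fell in HFD vs LFD (-0.45 ± 0.13, 0.017) as well as LFD MTX50 vs LFD (-0.34 ± 0.12, 0.041), while Nr1h2 rose in the first. Nr1d2 rose in LFD MTX50 vs LFD (0.70 ± 0.25, 0.049), and Rorb passed nowhere.

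**Figure D5:**
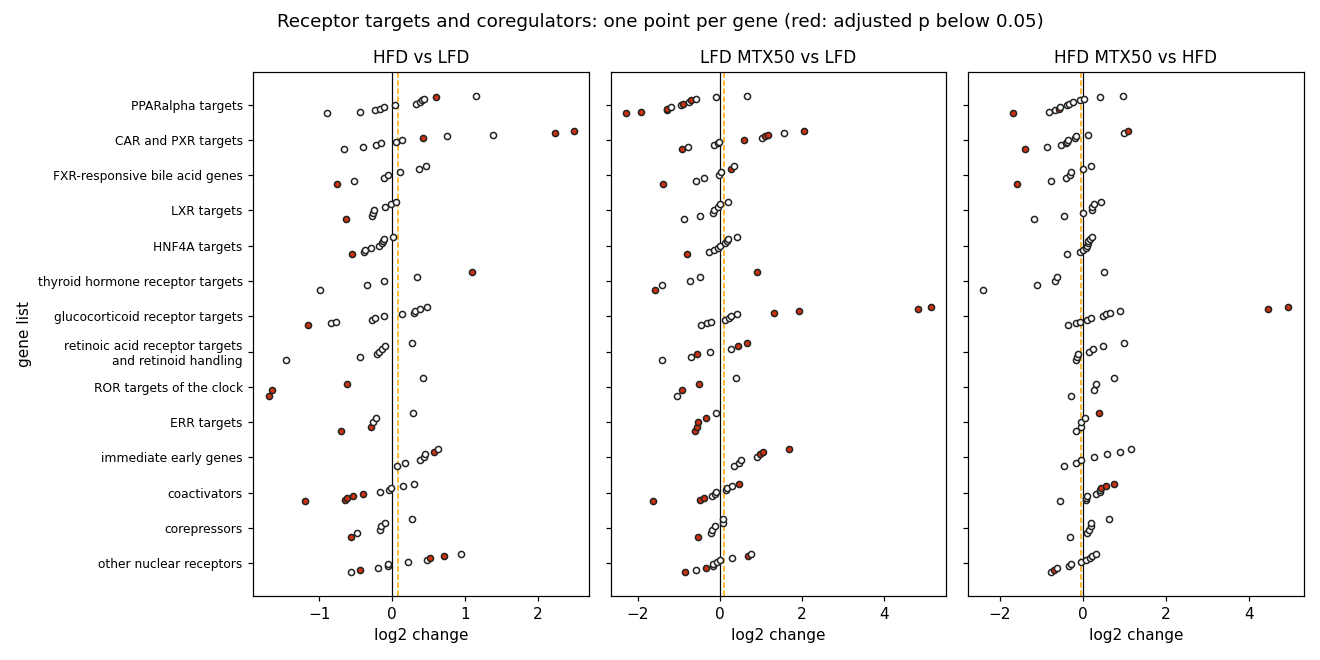
Each row is a list of targets, coregulators or other receptors and each point a gene, with its log2 change on the x axis and red where it passed an adjusted p of 0.05. The median of the 12 Ppara targets is -0.92 in LFD MTX50 vs LFD, and that of the 10 coactivators is -0.28 in HFD vs LFD and 0.36 in HFD MTX50 vs HFD, with single genes on both sides of 0.

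Markers of liver cell types were read beside these results, with 28.3, 28.1 and 11% of all genes past the test in the 3 comparisons. In HFD vs LFD, where Hnf4a and Esrra fell, 1 of 5 hepatocyte markers fell (Cps1, -1.24 ± 0.25, adjusted p = 0.005), and their summed linear level was 495 to 583 in LFD and 435 to 503 in HFD. In LFD MTX50 vs LFD, where Nr2f2, Rxrg and Nr4a1 fell, 1 of 6 Kupffer cell and macrophage markers fell (Cd68, summed level 25.2 to 38.1 in LFD and 17.6 to 23.8 in LFD MTX50). That sum is mostly Cd68 itself (mean level 4.51 in LFD, with Vsig4 next at 1.45). The median change of the 6 in LFD MTX50 vs LFD was 0.09. Of 7 stellate cell markers 1 rose (Des; summed level at most 18.4 in LFD and 13.9 to 22.5 in LFD MTX50), and none of 7 endothelial markers passed (20.7 to 29.0 and 24.8 to 39.3). Of the hepatocyte markers Apoa1 rose there, and Pecam1 was the 1 endothelial marker that fell in HFD MTX50 vs HFD. Of 3 tested erythroid markers 2 fell (Alas2 and Hba-a1, 15.8 to 22.7 and 1.01 to 1.57), and the HFD MTX50 mice ranged from 1.35 to 54.6. Of 5 tested neutrophil markers 1 rose (Ngp, at least 2.45-fold, 0.895 to 1.21 and 0.970 to 6.83), and the HFD MTX50 mice ranged from 1.01 to 49.3. Of 4 adipocyte markers 2 rose in HFD vs LFD, Lep and Plin1 (0.320 to 0.398 in LFD and 0.520 to 1.36 in HFD), where dim receptors rose. Of the same 4, 3 rose in LFD MTX50 vs LFD (summed level 0.467 to 0.806) and 1 in HFD MTX50 vs HFD. Among the B cell markers, Cd79a rose in HFD vs LFD (0.753 to 0.907 and 0.960 to 1.11) as well as LFD MTX50 vs LFD. Of 3 T and NK cell markers Nkg7 rose in HFD vs LFD (19.9 to 22.2 and 24.6 to 26.6). Of 5 cholangiocyte markers Sox9 fell there and Krt7 rose in LFD MTX50 vs LFD. In HFD vs LFD the macrophage marker Timd4 fell and the stellate marker Acta2 rose. The part of these cells in the receptor results was not tested.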

How the data were processed

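Liver RNA of 18 mice was read on one-colour Agilent arrays. The authors deposited scanner output of Agilent Feature Extraction 10.7.3.1 (version per the labels), whose processed signal is a linear intensity, background-subtracted within each array and not scaled between arrays. A deposited value table holds the background-subtracted intensity, rounded (100.0% of spots within 0.6%). From these, log2 of the processed signal minus the 75th percentile of its array was computed from the deposited files. Control spots and outlier spots were left out. A probe was kept if well above background on at least 4 arrays, which left 35735 probes. Each gene was tested on its brightest kept probe, and other probes are given for some of the receptors and comparisons.

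All 4 groups were fitted together with limma 3.58.1 (lmFit and eBayes, R 4.3.3, prior degrees of freedom 2.771). In that fit p-values were adjusted by the Benjamini-Hochberg method over all 35735 kept probes. Brightest and second probes both carry the adjusted p of that fit, and shares of all genes are over the brightest probes of 19601 genes. Called means an adjusted p below 0.05. The fit was tested on simulated data. Tables were made with Python 3.11.15 and pandas 2.3.3.

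Alternatives were normexp background (offset 50), quantile normalization, median scaling (over the probes above background on every array), the value table, other filters, a variance trend, only the groups compared, the methods' t-test, a fold threshold, slide and replicate blocks, the mean of a gene's probes, and leaving out each array. The scanner files used here have no mean signal, so normexp ran on the median signal and not on the mean signal that had been planned. Precision is limited by the number of arrays.

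The 37 receptors and the gene lists were chosen with earlier results of these data known. Values per mouse are given for the 20 receptors called in at least 1 of the 3 comparisons and for 4 more well known liver receptors (Nr1h4, Nr1i3, Ppara and Nr3c1). Of each list, the first 2 genes and at most 4 more of those called, by size of change, are named, and genes named beyond these were chosen after their values were seen. Some genes of the lists are counted but not reported here by name.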

Additional observations from a re-analysis of the deposited data

Results flagged for a closer look

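In 139 sets of 4 or 5 mice of a group, 8 values stood apart from the rest of their group by Dixon's test. Chance gives about 1 in 20 sets, and 8 of 139 lies close to that rate. Log2 levels over the 75th percentile were 1.08 for Rara in LFD mouse 4 (others 1.44 to 1.49), -3.54 for Nr3c2 in LFD mouse 2 (-3.36 to -3.34), 0.36 for Hnf4g in LFD mouse 3 (0.74 to 0.78) and -0.32 for Rora in LFD mouse 2 (-0.04 to 0.02). They were 1.87 for Esrra in LFD MTX50 mouse 1 (1.39 to 1.52) and -4.56 for Vdr in LFD MTX50 mouse 3 (-6.85 to -6.30). They were 5.55 for Rxrg in HFD MTX50 mouse 1 (6.77 to 7.15) and 2.61 for Nr1h4 in HFD MTX50 mouse 2 (2.10 to 2.20).

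The effect of methotrexate differed between the diets for 10 receptors by the interaction term (limma, adjusted p; effect in HFD mice minus effect in LFD mice, log2). It was higher in HFD mice for Nr2f2 (1.59, 0.0096), Rxrg (1.09, 0.030), Esrra (0.82, 0.0091), Nr4a1 (0.78, 0.021), Thrb (0.59, 0.039) and Rarg (0.46, 0.039). It was lower for Nr4a3 (-1.21, 0.015), Nr3c2 (-0.84, 0.014), Nr1h2 (-0.50, 0.030) and Rarb (-0.43, 0.021). Dimmer probes gave 0.19 (0.277) for Thrb, 0.07 (0.800) for Rxrg, and 0.63 (0.207) and -0.30 (0.499) for Rarb. With quantile normalization Nr4a3 gave -0.47 (0.251), Nr3c2 -0.55 (0.073), Rarb -0.29 (0.090) and Nr1h2 -0.82 (0.012). The median gene of the bin of Nr4a3 gave -0.605 and that of Nr3c2 -0.319. Leaving out 1 array ended the call of Thrb for 11 arrays, Rarg for 9, Rxrg for 7, Nr1h2 for 4 and Rarb for 2 (highest adjusted p 0.083, 0.084, 0.064, 0.060 and 0.054).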

How the results depend on the processing

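Receptors called in HFD vs LFD, LFD MTX50 vs LFD, HFD MTX50 vs HFD and the difference of effects numbered 12, 10, 2 and 10, and changed to 0, 1, 0 and 0 with normexp background (2, 339, 0 and 0 of all genes, against 5556, 5504, 2148 and 5244), to 1, 2, 0 and 3 with an added 2-fold threshold, and to 0, 0, 2 and 1 under the random slide block (380, 340, 1858 and 1250 of all genes), the 2 being Hnf4a and Rarb and not Nr5a2. The methods' t-test at an unadjusted p up to 0.015 and 2-fold gave 1, 2 and 0 in the 3 comparisons. In HFD MTX50 vs HFD the count was 4 with quantile normalization and 0 with the value table, with only the groups compared, with the methods' t-test after Benjamini-Hochberg and with the slide as a fixed block. The last 3 of these called 0 of all genes, and 11 receptors had an unadjusted p below 0.05 in limma (16, 16 and 15 in the other fits). In HFD vs LFD, 3522 of 5556 called genes were higher, against 1713 of 3761 with quantile normalization and 2482 of 5450 with median scaling. Only the groups compared called 8170 of all genes in HFD vs LFD, and quantile normalization called 3284 in the difference of effects. With a gene's probes averaged, Rora turned from -0.45 to 0.08 in HFD vs LFD, and no other call of the 24 receptors given by mouse reversed under the alternatives run. Of their 33 calls, 24 held with quantile normalization, 27 with median scaling, 25 with the value table, 33 with a variance trend and 16 without any 1 of the 18 arrays. Without 1 array the counts ran from 5 to 14, 7 to 15, 0 to 7 and 5 to 12. The replicate block gave 10, 12, 0 and 8 receptors (5320, 5416, 1013 and 5066 of all genes). The replicate numbers did not pair the mice, since deviations of same-numbered mice correlated by -0.313 to 0.254. The cause of these differences was not tested. Signal near background limits Nr4a3 and Vdr.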
